A study of Mus musculus with 6 samples.

Results

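The genes described here are 51 splicing factors listed in the mouse nucleus accumbens (NAc), and the data are the splicing and transcript-end events listed for their own transcripts. The 51 genes were chosen by name, and every entry carrying the GENCODE M21 identifier of such a gene was taken. They fall into 13 SR proteins, 19 heterogeneous nuclear ribonucleoproteins (hnRNPs), 5 core factors, 6 SR-related and RBM proteins and 8 tissue regulators. All 51 were listed in all 6 libraries, and they held 701 of the 125409 distinct events of the 16154 listed genes. Total RNA was sequenced in 3 libraries of the morphine group and 3 of the saline group, all from adult male C57BL/6N mice. Both groups went through conditioned place preference (CPP), a task in which an animal learns to link a compartment with an injection, and NAc tissue was taken shortly after the test. The morphine group had morphine (intraperitoneal) paired with a compartment and saline with the other, while the saline group had saline injections. The series description counts more mice than samples, whereas a legend of the study names as many mice as libraries, so it is not settled whether tissue was pooled, and p-values measure the spread between these libraries only.

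Splicing removes introns from a pre-mRNA. The U1 and U2 particles of the spliceosome bind the donor and acceptor ends of an intron, SR proteins usually favor the use of nearby exons, and hnRNPs often oppose it. Genes for splicing factors are known for controlling their own output by splicing: many carry a poison exon, whose inclusion brings a premature stop codon and exposes the mRNA to nonsense-mediated decay, or an intron that stays in the transcript and keeps it in the nucleus. Several of these genes hold ultraconserved sequence around such exons.

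The event lists record which events the assembled transcripts of a library contained, without a level. A listed skipped exon means that the assembly held at least a transcript with the exon and another without it, and an event missing from a list may have been present in the tissue below the depth of the library. Relative depth was 1, 1.07 and 1.37 in saline libraries 1, 2 and 3, and 1.20, 1.59 and 1.29 in morphine libraries 1, 2 and 3. The libraries listed between 53371 and 60163 events in 14243 to 14956 genes. All 10 markers of striatal projection neurons were listed in all 6 libraries, as were all 3 cortical markers and all 3 ependymal markers. The same held for all 5 oligodendrocyte, all 4 astrocyte and all 4 microglia markers. Of the 3 endothelial and 3 choroid plexus markers, 2 each were listed in all 6 libraries. Being listed does not measure how many cells of a type the tissue held. In bulk tissue, fewer cells of a type and less RNA per cell cannot be told apart.

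The splicing factors were rich in events of their own. Over all libraries a member had between 2 and 36 distinct events with a median of 12, whereas the median of all listed genes was 5. Rbm39, an RRM protein that recruits the U2AF dimer and other factors, had most with 36, followed by Celf2 with 33, and by U2af1 and Rbm25 with 30 each. Hnrnpul2 was at the other end, with only 1 transcript start and 1 transcript end in every library. Retained introns were listed in 36 of the 51 genes, single skipped exons in 41, and alternative exon ends in 34. Only 5 genes had the same number of events in every library, namely Hnrnpa1 with 3, Hnrnpab and Hnrnph2 with 4, Hnrnpul2 with 2 and Mbnl2 with 6. A further 12 of the 701 events lay on the strand opposite to their gene, in 6 genes.

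**Figure D1:**
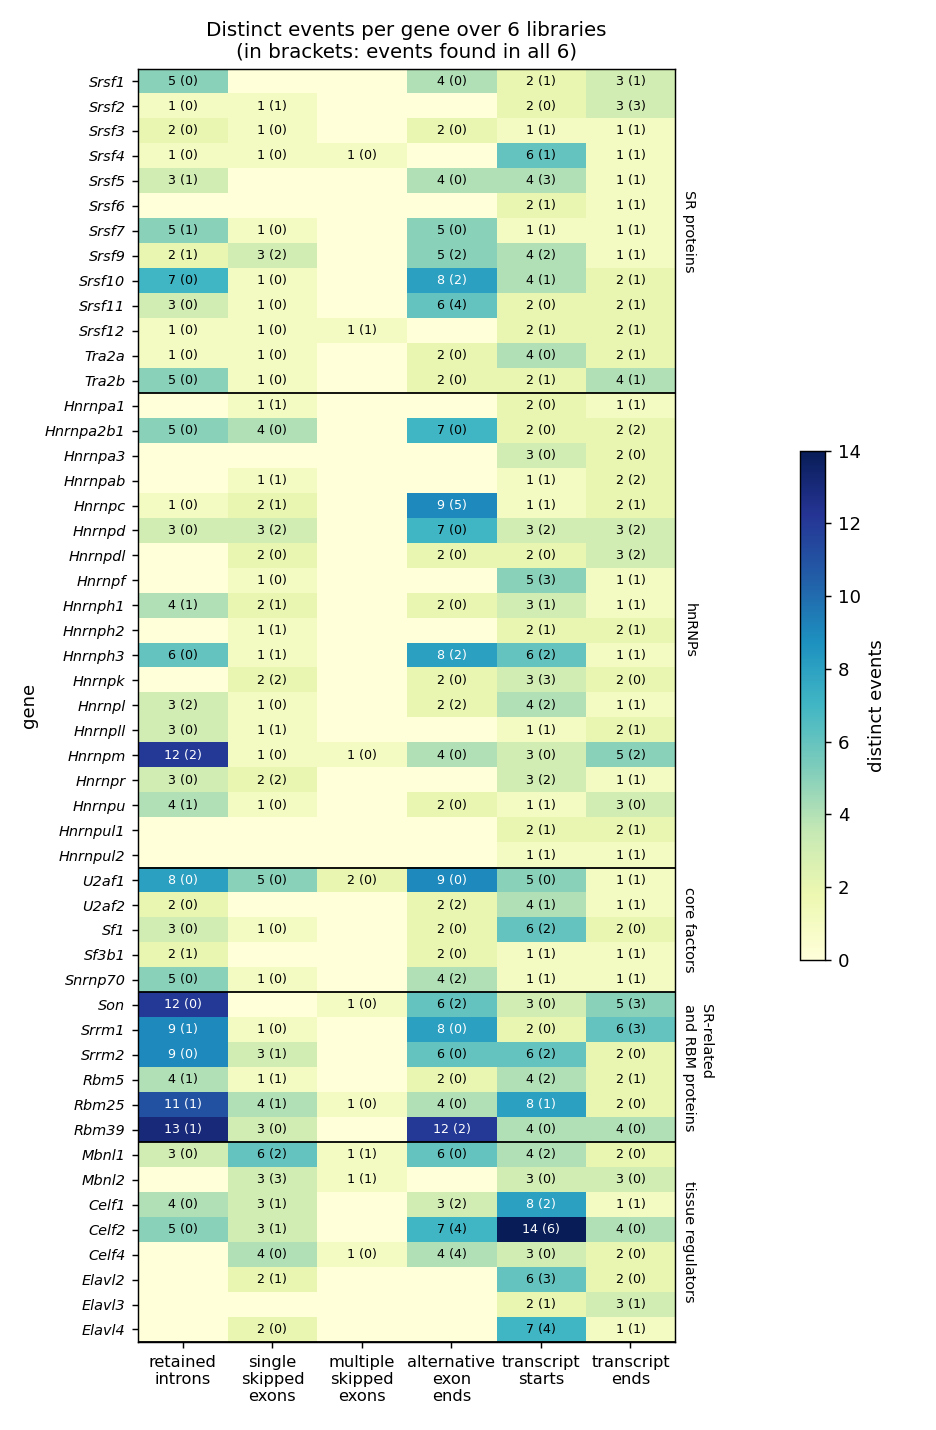
Heat map of the number of distinct events over 6 libraries for each of the 51 genes (rows, grouped by family) in 6 event classes (columns), with the number found in all 6 libraries in brackets; empty cells are 0. Retained introns gather in the SR-related and RBM genes (Rbm39 13, Son 12, Rbm25 11) and Hnrnpm (12), while Celf2 has 14 transcript starts.

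Among the 80 single skipped exons of the splicing factors, 21 exons in 15 genes were poison exons by reading frame. Such an exon was defined as lying between the start and stop codon of a coding transcript that lacks it, with its inclusion giving a new in-frame stop over 50 nt before the last exon junction. That is 26.25% of their skipped exons, against 9.67% (892 of 9221) over all genes. By annotation, as an inner exon of transcripts marked for nonsense-mediated decay and of no protein-coding transcript, the numbers were 13 of 80 (16.25%) and 309 of 9221 (3.35%). These shares describe exons in the lists and carry no test.

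The exons that carry this result are printed from their first base to the first in-frame stop, which is in capitals, as read from the GENCODE M21 transcripts (GRCm38). The first 4 were listed in all 6 libraries and the others show SR, Tra2 and RBM genes whose exon was listed in fewer.
Srsf9, 358 nt, chr5:115328347-115328704, plus strand: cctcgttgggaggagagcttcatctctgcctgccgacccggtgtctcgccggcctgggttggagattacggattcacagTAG
Srsf9, 90 nt, chr5:115331450-115331539, plus strand: aaaactatTAG
Hnrnpll, 83 nt, chr17:80044940-80045022, minus strand: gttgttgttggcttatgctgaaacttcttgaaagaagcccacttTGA
Elavl2, 91 nt, chr4:91311573-91311663, minus strand: acggcaactccaaacTAA
Srsf3, 456 nt, chr17:29039454-29039909, plus strand: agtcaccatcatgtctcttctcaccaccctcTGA
Srsf4, 184 nt, chr4:131885309-131885492, plus strand: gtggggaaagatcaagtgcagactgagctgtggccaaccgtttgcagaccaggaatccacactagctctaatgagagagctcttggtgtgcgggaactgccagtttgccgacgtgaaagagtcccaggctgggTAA
Tra2b, 276 nt, chr16:22258986-22259261, minus strand: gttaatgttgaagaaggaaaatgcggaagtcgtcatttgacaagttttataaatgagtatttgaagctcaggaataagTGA
Rbm25, 105 nt, chr12:83651646-83651750, plus strand: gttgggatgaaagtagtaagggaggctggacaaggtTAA
Rbm39, 73 nt, chr2:156178880-156178952, minus strand: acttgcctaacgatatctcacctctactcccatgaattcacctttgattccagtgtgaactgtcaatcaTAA

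In SR protein genes, 9 poison exons were listed as skipped exons in 7 of the 13 genes. Srsf9, a small SR protein that acts in alternative splicing, had 3 of them. Its 358-nt exon with the stop at base 80 and its 90-nt exon with the stop at base 9 were listed in every library. A 79-nt form of the latter exon, with an acceptor 11 nt further downstream, was listed in all libraries except morphine library 1. The 456-nt exon of Srsf3, the smallest SR protein, was listed in morphine library 1 alone. The 184-nt exon of Srsf4 appeared in saline library 2 alone, and the 276-nt exon of Tra2b, an SR-like activator of exon inclusion, in saline library 3 alone. The 360-nt exon of Srsf10, whose stop begins at base 5, was listed in saline libraries 1 and 3 and in no morphine library. A 989-nt exon of Srsf11 was listed in saline libraries 1 and 3 and morphine library 1, and a 105-nt exon of Srsf12 in saline libraries 1 and 2 and morphine library 2. The longer exons of Srsf9 were thus listed throughout, and those of the other SR genes differed between libraries of the same group.

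Outside the SR family, 2 further genes had a poison exon in all 6 libraries. The 83-nt exon of Hnrnpll, a paralog of the hnRNP L repressor, carries its stop at base 45 and is annotated as a decay exon. The 91-nt exon of Elavl2, a neuronal RNA-binding protein of the Hu family, also belongs to annotated protein-coding transcripts, so it is a poison exon only in the frame of the longest coding transcript that lacks it. The same holds for the 79-nt form in Srsf9, the 105-nt exon of Srsf12 and the 87-nt exon of Elavl4, which was listed in morphine libraries 1 and 2. Rbm25, a U1-associated SR-like protein, had its 105-nt exon in all 3 saline libraries and in morphine library 1, and an unannotated 62-nt exon in saline library 3. Rbm39 had a 73-nt exon in saline libraries 1 and 2 and a 72-nt exon in saline library 1 and morphine library 1. Srrm2, a large SR-related scaffold of the active spliceosome, had exons of 95 and 123 nt with a common acceptor, both in morphine library 3 alone. Snrnp70, the 70K protein of U1, had a 1360-nt exon in saline library 3.

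U2af1 encodes the small U2AF subunit, which reads the AG of the acceptor site. It holds a pair of exons of 67 nt that are used in place of each other, and including both shifts the frame and gives a stop, so both were counted as poison exons. They are shown because they are the only pair of equal length, without overlap, among the wholly coding skipped exons within a gene. Celf4 was not searched, and the search did not ask whether exons replace each other. Their sequences agree at 44 of 67 bases (65.7%), and capitals mark the bases that differ.
U2af1, chr17:31651646-31651712, minus strand: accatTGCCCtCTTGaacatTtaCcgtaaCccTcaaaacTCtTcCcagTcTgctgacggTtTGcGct
U2af1, chr17:31652502-31652568, minus strand: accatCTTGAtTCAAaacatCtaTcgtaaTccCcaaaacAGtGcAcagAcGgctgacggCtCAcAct
The exon at 31651646 was listed as skipped in morphine libraries 1 and 2, and that at 31652502 in saline library 2 and morphine libraries 2 and 3. U2af1 had 30 events over all libraries and only its transcript end was found in all 6.

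**Figure D2:**
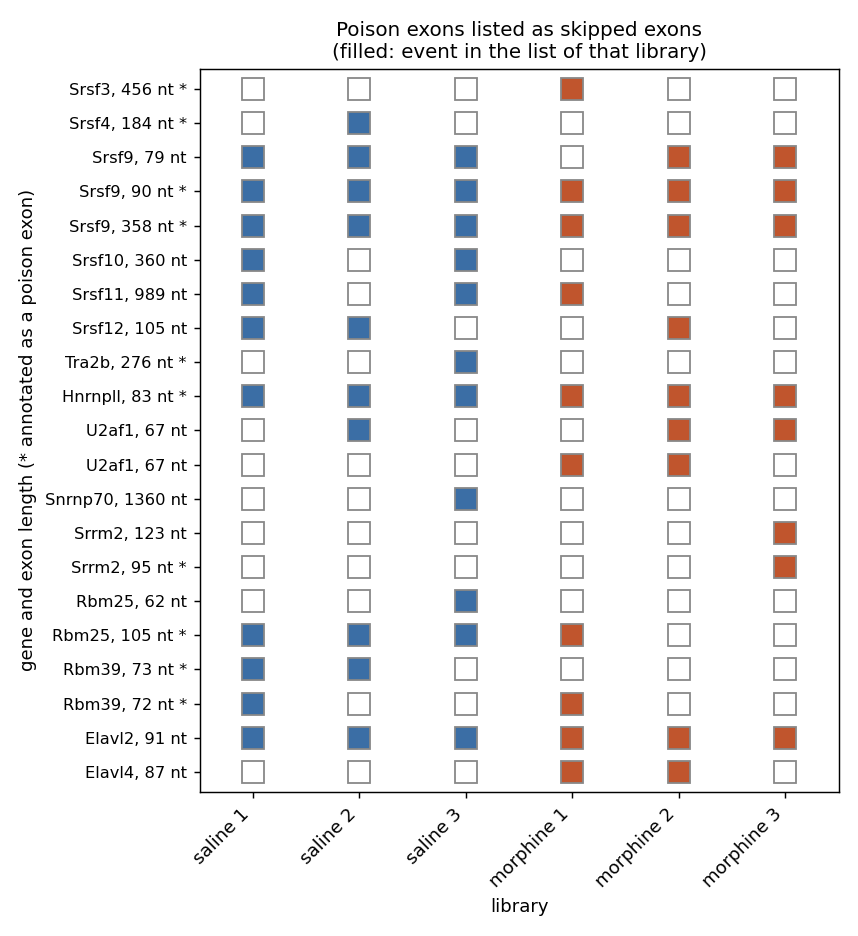
Presence of the 21 poison exons (rows, gene and exon length, an asterisk for those annotated as such) in the event list of each library (columns); a filled square means listed as a skipped exon. Both longer Srsf9 exons, Hnrnpll and Elavl2 are filled in all 6 libraries, and 7 exons are filled in 1 library only.

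The annotation holds 36 poison exons in an intron of a coding transcript of 22 of these genes, and most were not seen as skipped exons. In all, 12 in 10 genes were listed as such, 3 of them in all 6 libraries. The remaining exon counted by annotation, of 51 nt in Hnrnpu, lay in no intron of a coding transcript. Of the 24 poison exons not listed as skipped, 18 in 13 genes lay wholly inside a retained intron or an extended exon that was listed. For 12 of these 18, in 9 genes, such events between them covered all 6 libraries. In Sf3b1, the branch-point binding subunit of U2, the 56-nt poison exon lay inside a retained intron of 1813 nt. In Srsf7 a poison exon of 460 nt lay inside an intron of 874 nt, in Hnrnpl one of 70 nt inside an intron of 3108 nt, and in Srrm1 one of 282 nt inside an intron of 2065 nt, and all of these introns were listed in every library. The 80-nt exon of Son, a large SR-related protein of nuclear speckles, and the 117-nt and 109-nt exons of Srsf11 were covered in every library by an extended exon. The 6 exons found in neither form belonged to Hnrnpd, Srsf4 and Srsf6. A splice site of each was listed as that of a transcript start or end, in 1 or 2 libraries. A long intron has more room for an annotated exon, so these counts describe position only.

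Retained introns of the splicing factors recurred between libraries more often than those of all genes, as a description. Of their 170 retained introns and intron runs, 14 (8.24%) were found in all 6 libraries, against 2.16% of the 21507 of all genes. These were 11 single introns, in Hnrnpl (2), Hnrnpm (2), Hnrnpu, Rbm25, Sf3b1, Srrm1, Srsf5, Srsf7 and Srsf9, and a run of adjacent introns in each of Hnrnph1, Rbm39 and Rbm5. The 11 introns had a median length of 1793 nt, and the 398 introns of all genes that were retained in all 6 libraries had a median of 642.5 nt. Over all single retained introns the medians were 811 nt for the splicing factors (133 introns) and 742 nt for all genes. Of these 133 introns, 34.6% were annotated as retained, compared with 18.3% of all 15464. Of the 11 introns, 6 held or adjoined a poison exon, as did 47 of all 133 (35.3%) and 16 of the 64 found in 1 library only (25.0%). The intron of Srsf9, for example, begins right behind its 358-nt poison exon.

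The splice sites of the 7 recurrent introns with known sequence are given to show what the retained introns look like. Each donor is printed with 3 exon bases and 6 intron bases and each acceptor with 20 intron bases and 3 exon bases, and capitals mark the intron (GENCODE M21 transcripts, GRCm38).
Srsf5 donor, intron chr12:80947866-80949094, plus strand: cagGTTTGT
Srsf5 acceptor: CATAATTGTCTTGTGTTAAGgat
Srsf7 donor, intron chr17:80204388-80205261, minus strand: cagGTATTT
Srsf7 acceptor: TTTTCTAACTTAAAAAATAGgtc
Sf3b1 donor, intron chr1:55014563-55016375, minus strand: atgGTAATT
Sf3b1 acceptor: GTTGCTGTTCTTTTCTGCAGgag
Srrm1 donor, intron chr4:135344670-135346734, minus strand: aagGTATGA
Srrm1 acceptor: CCTGTCATGTCTTTTTGCAGaac
Rbm25 donor, intron chr12:83660679-83663978, plus strand: aagGTAGTA
Rbm25 acceptor: GTACTTTTGTTGGTTTCTAGaaa
Hnrnpl donor, intron chr7:28818533-28818643, plus strand: atgGTGAGG
Hnrnpl acceptor: CTTTCCTTCCCACCCCCCAGgag
Hnrnpm donor, intron chr17:33666530-33666646, minus strand: aagGTGATG
Hnrnpm acceptor: AGATTATCCATGCATTACAGgct
All 7 introns begin with GT and end with AG. The introns of Srsf5 (1229 nt), Srsf7 (874 nt), Sf3b1 (1813 nt), Srrm1 (2065 nt) and Rbm25 (3300 nt) have a GC content between 32.9% and 36.3%, and reading through each gives a premature stop. The short introns of Hnrnpl (111 nt, 67.6% GC) and Hnrnpm (117 nt, 46.2% GC) give none when retained. Counting all 20 retained introns of the set that lie between start and stop codon and have known sequence, 18 (90%) give a stop, and over all genes 2030 of 2184 (92.9%) do.

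The gene with most retained introns was Rbm39, with 13 over all libraries and 9, 2 and 6 in saline libraries 1, 2 and 3 and 9, 9 and 3 in morphine libraries 1, 2 and 3. Both groups thus span nearly the same range. Hnrnpm, which binds GU-rich intron sequence, had 12, with 5, 2 and 3 in saline and 7, 4 and 6 in morphine. Son also had 12, with 1, 4 and 4 in saline and 4, 5 and 4 in morphine. Rbm25 had 11, with 2, 2 and 4 in saline and 5, 3 and 6 in morphine. Srrm1, a coactivator that bridges SR proteins, had 9, with 1, 6 and 7 in saline and 4, 4 and 4 in morphine. Srrm2 also had 9, listed 0, 0 and 0 times in saline and 2, 1 and 8 times in morphine. It was the only one of the 36 genes with retained introns whose counts did not overlap between groups (2.78%), which is near the 2.86% of all 4970 genes with retained introns. Of the 8 in morphine library 3, 5 share a region with the 95-nt and 123-nt poison exons of the same library.

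**Figure D3:**
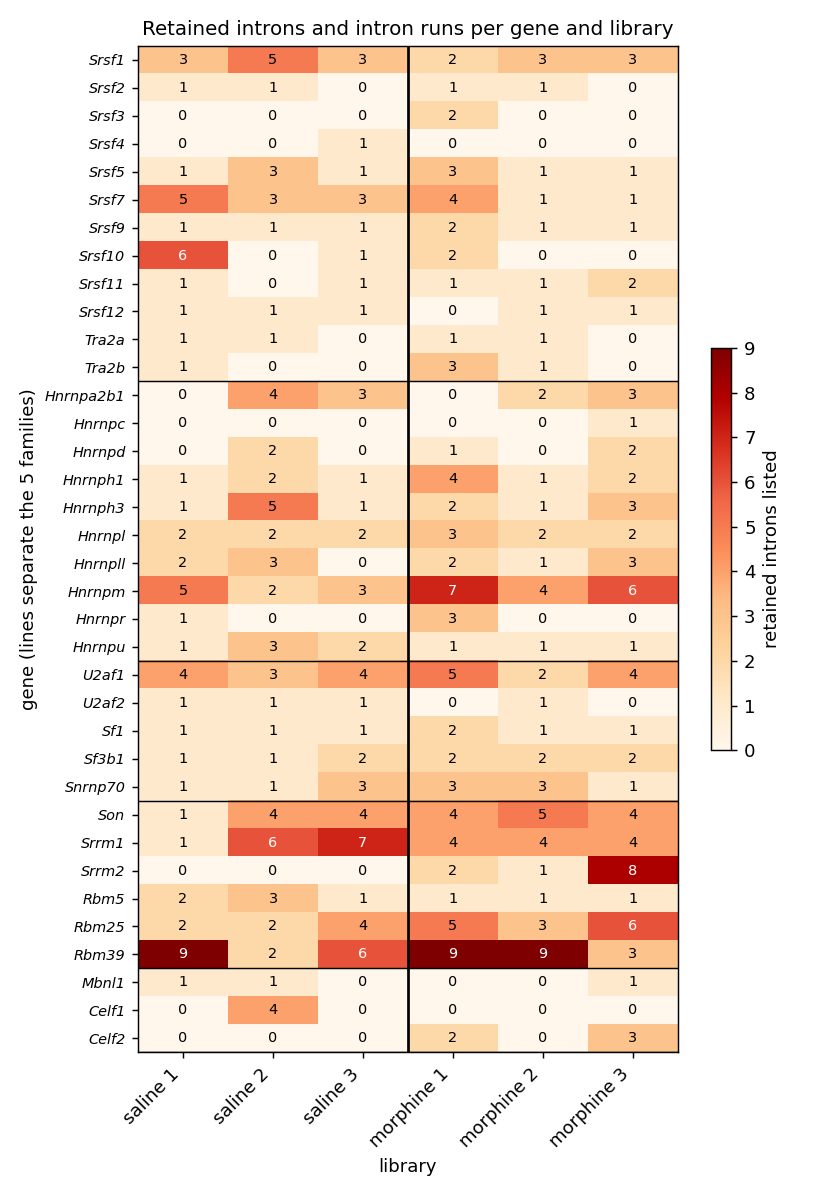
Heat map of the number of retained introns and intron runs for each of the 36 genes that had any (rows, lines separating families) in each library (columns, a vertical line separating saline from morphine). Srrm2 is at 0 in the saline libraries and at 2, 1 and 8 in the morphine libraries, while Rbm39 reaches 9 in both groups.

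Wholly coding skipped exons mostly kept the reading frame. Of 33 such exons 22 (66.7%) had a length in multiples of 3, and over all genes 2950 of 5046 (58.5%) did. For 8 exons in 5 genes, skipping gave a stop over 50 nt before the last junction, or 10% of the skipped exons against 17.0% over all genes. Only wholly coding exons could be called so, and these were 41.25% of the skipped exons against 54.7% over all genes. Within the wholly coding exons, it was 8 of 33 against 1564 of 5046. Among the 8 exons, the 139-nt exon of Hnrnph3, the 44-nt exon of Hnrnpk and the 85-nt exon of Rbm5, a regulator of apoptosis-related splicing, were listed in every library. Skipped exons in the 3′ UTR, which place a junction behind the normal stop, were 5 of 80 in the splicing factors (6.25%) and 15 of 9221 over all genes (0.163%). They lay in Srsf2 (104 nt, in all 6 libraries), Hnrnpdl, Celf4 and Hnrnpa2b1 (2 exons).

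Mbnl1 and Mbnl2, the muscleblind proteins that set adult splicing programs in muscle and brain, share some skipped exons. Mbnl1 had 6 single skipped exons and Mbnl2 had 3. Exons of 54, 36 and 95 nt were listed in both genes. They are printed because both genes listed the same exons from different chromosomes, and capitals mark the bases that differ.
Mbnl1 54 nt, chr3:60614683-60614736: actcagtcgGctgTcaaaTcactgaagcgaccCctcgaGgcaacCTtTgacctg
Mbnl2 54 nt, chr14:120395712-120395765: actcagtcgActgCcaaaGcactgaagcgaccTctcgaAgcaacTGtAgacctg
Mbnl1 36 nt, chr3:60621423-60621458: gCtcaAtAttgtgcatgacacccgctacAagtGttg
Mbnl2 36 nt, chr14:120403336-120403371: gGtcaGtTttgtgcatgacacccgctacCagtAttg
Mbnl1 95 nt, chr3:60622146-60622240: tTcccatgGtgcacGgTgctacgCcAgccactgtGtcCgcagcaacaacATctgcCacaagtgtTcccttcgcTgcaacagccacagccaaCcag
Mbnl2 95 nt, chr14:120404638-120404732: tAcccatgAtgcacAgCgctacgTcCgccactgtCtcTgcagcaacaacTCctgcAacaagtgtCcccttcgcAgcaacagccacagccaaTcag
All 6 exons lie on the plus strand. The pairs agree at 46 of 54 bases (85.2%), 31 of 36 (86.1%) and 81 of 95 (85.3%). In Mbnl2 all 3 exons were listed as skipped singly in every library, and in Mbnl1 the 54-nt exon was. Single skipping of the 36-nt and 95-nt exons of Mbnl1 was not listed in morphine library 1. Joint skipping of the 36-nt and 95-nt exons was listed in all 6 libraries in both genes.

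A skipped exon of 39 nt was shared in the same way by Elavl2 and Elavl4, whose proteins stabilize neuronal mRNAs. It agrees at 33 of 39 bases (84.6%), and both copies lie on the minus strand.
Elavl2 39 nt, chr4:91254141-91254179: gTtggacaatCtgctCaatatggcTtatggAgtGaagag
Elavl4 39 nt, chr4:110209740-110209778: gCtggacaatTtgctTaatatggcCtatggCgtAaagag
In Elavl2 it was listed in saline libraries 1 and 3 and morphine libraries 2 and 3, and in Elavl4 in all saline libraries and morphine library 1.

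The 5 genes with most single skipped exons were Mbnl1 with 6, U2af1 with 5, and Celf4, Hnrnpa2b1 and Rbm25 with 4 each. Mbnl1 had 5, 6 and 5 in the saline libraries and 3, 6 and 4 in the morphine libraries. Hnrnpa2b1, a nuclear hnRNP that also carries mRNA in dendrites, had 0, 2 and 3 in saline and 2, 4 and 0 in morphine. Celf4, a neuronal RNA-binding protein, had 0, 3 and 1 in saline and 1, 1 and 0 in morphine. These genes ranged as widely within a group as between groups. In all, 27 of the 80 skipped exons (33.75%) were found in every library, 2 of them in Mbnl1 and 1 in Rbm25. They also included the 159-nt exon of Hnrnpa1, the 141-nt exon of Hnrnpab, the 147-nt and 57-nt exons of Hnrnpd and the 72-nt exon of Hnrnpk. Hnrnpk encodes a poly(C)-binding hnRNP and Hnrnpd the AU-rich element binding protein AUF1.

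Alternative exon ends formed 105 pairs of a shorter and a longer exon in 34 genes, 43 at donors and 62 at acceptors. In 57 pairs the longer exon swallowed a listed retained intron, so the pair and the intron cover the same bases, with a median extension of 1979 nt. The other 48 pairs had a median of 76.5 nt. Of the 19 pairs found in all 6 libraries, 14 held no retained intron, and they extended the exon by 3 to 62 nt, in multiples of 3 for 13 of the 14. The exception was a donor of Srsf10, an SR repressor, with 62 nt. Hnrnpc, the hnRNP that competes with U2AF at uridine tracts, had an acceptor with sites 3, 21 and 24 nt apart and a donor with 39 nt. Celf2, a regulator of neuronal and cardiac splicing, had an acceptor with 18 nt and a donor with 12 nt, its relative Celf1 an acceptor with 12 nt, and U2af2, the polypyrimidine-tract subunit of U2AF, a donor with 12 nt.

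Transcript starts numbered 175 over the 51 genes, with 63 in all 6 libraries. Of the starts in all 6 libraries 60 are annotated, and of the 52 found in 1 library 11 are. Celf2 had 14 starts, of which 6 were in all 6 libraries, spread over 9, 8 and 7 in saline and 10, 7 and 11 in morphine. Of the 14, 2 lay on the opposite strand, in 1 library. Celf1 and Rbm25 had 8 each, Elavl4 had 7, and Elavl2, Hnrnph3, Sf1, Srrm2 and Srsf4 had 6 each. The counts of Elavl4 were 5, 6 and 5 in saline and 5, 6 and 4 in morphine, and 4 of its starts were found in all 6 libraries. Transcript ends numbered 106, with 50 in all 6 libraries, 47 of them annotated. Srrm1 had most with 6, followed by Hnrnpm and Son with 5, and by Celf2, Rbm39 and Tra2b with 4 each.

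The main comparison asked whether the number of events per library differed after morphine training. Retained introns numbered 58, 67 and 57 in saline and 83, 55 and 70 in morphine libraries, or 60.7 ± 5.51 and 69.3 ± 14.01 (SD, n = 3). The morphine group held both the highest and the lowest value, and the difference of 14.3% did not pass the test (exact two-sided permutation, p = 0.5). It was 8.32% after scaling to the length of the list, 3.02% without morphine library 1 and 26.1% without morphine library 2. Morphine library 1, with the highest number, also listed most retained introns over all genes (8234, against 4756 to 6882 in saline), and the part of this in the result was not tested. Single skipped exons numbered 47, 50 and 48 in saline and 47, 48 and 41 in morphine (exact permutation p = 0.5). Poison exons numbered 11, 10 and 11 in saline and 10, 9 and 8 in morphine, 10.7 ± 0.577 against 9 ± 1 (SD, n = 3, exact permutation p = 0.2), with 10 occurring in both groups. By annotation the order of the groups turned, and morphine was 11.8% higher (exact permutation p = 1.0). All events together numbered 362, 379 and 358 in saline and 397, 360 and 365 in morphine (exact permutation p = 0.6). For multiple skipped exons and alternative exon ends the exact permutation p was 0.6, and for starts, ends and exons whose skipping gives a stop it was 1.0. No class separated the groups as counted, the lowest Benjamini-Hochberg value over the 9 tests was 0.9, and 3 against 3 libraries cannot give a p below 0.1. That smallest exact permutation p of 0.1 was reached for poison exons scaled to the length of the list (-19.95%) and with all coordinates as identity (-16.7%), for single skipped exons when scaled (-11.1%), and for alternative exon ends of exact types (5.98%). For poison exons of exact types the difference was only -4.17%.

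**Figure D4:**
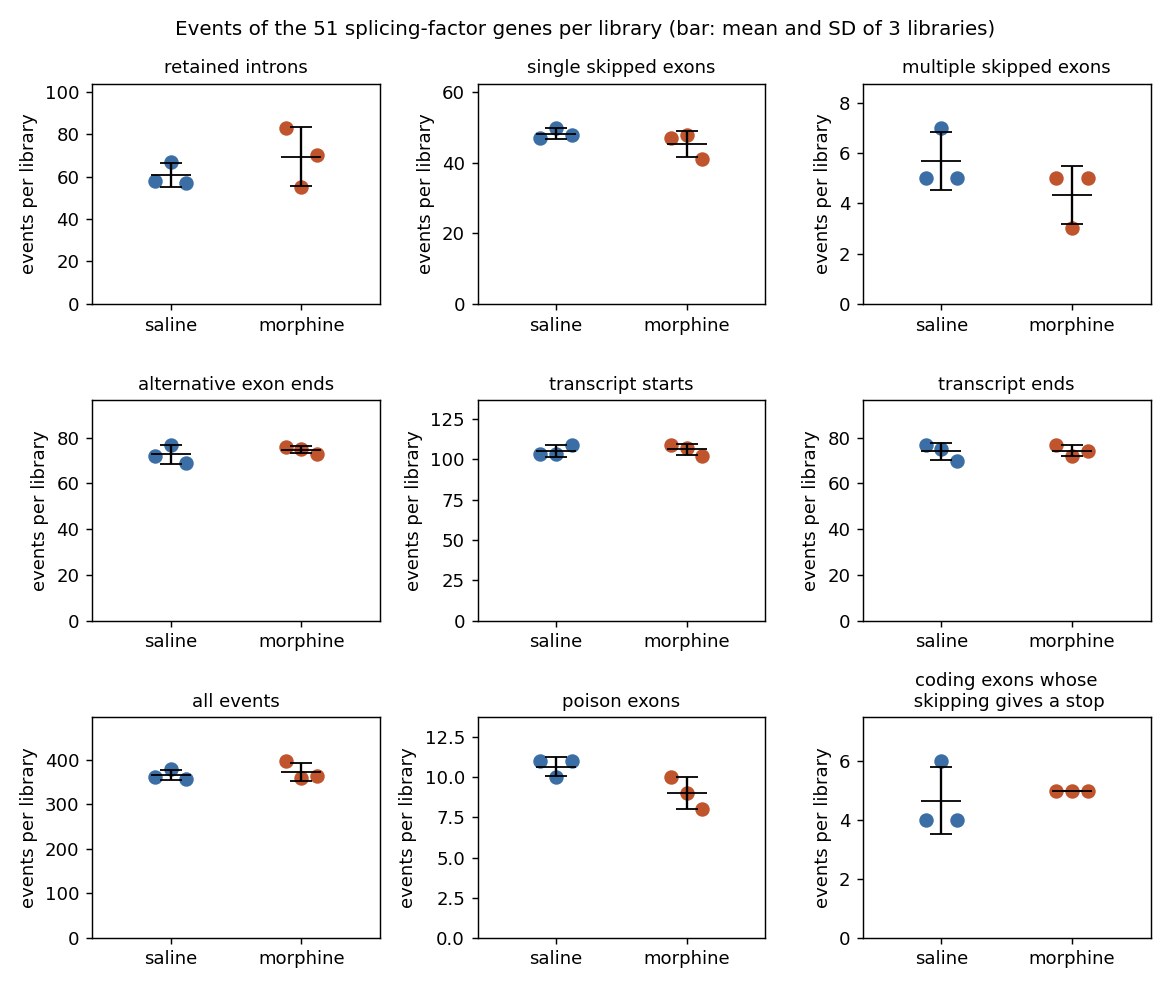
Number of events of the 51 genes in each library, in 9 panels for the event classes, all events, poison exons and coding exons whose skipping gives a stop; points are libraries, and bars give the mean and SD of the 3 libraries of a group. The groups overlap in every panel, with poison exons at 11, 10 and 11 in saline and at 10, 9 and 8 in morphine.

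Within families, 40 comparisons of 5 families and 8 classes were made, and the counts did not overlap in 5. With a smallest exact permutation p of 0.1, some of 40 comparisons can separate without any difference between groups. No share over other gene groups of like size was computed to set beside this number. The comparisons are not independent, because all events include the other classes and poison exons are part of the single skipped exons. In the 13 SR protein genes, poison exons numbered 6, 5 and 6 in saline and 4, 4 and 3 in morphine, and single skipped exons 8, 7 and 8 in saline and 6, 5 and 4 in morphine. The lower poison exon counts came from Srsf4, Srsf10, Srsf11, Srsf12 and Tra2b, each listed as skipped in at most 1 morphine library, together with the 79-nt exon of Srsf9. The Srsf3 exon was listed as skipped in morphine only, but lay inside an extended exon in 1 saline and 2 morphine libraries. The Srsf11 exon lay inside an extended exon in all 6 libraries, that of Srsf10 in morphine library 1 and that of Tra2b in morphine library 2. A lower count of skipped exons thus does not show that these exons were absent from the assemblies. A splice site of the exon was also listed as a transcript start, for Srsf12 and Tra2b each in 1 saline and 2 morphine libraries. For Srsf4 this held in 1 morphine library, and for Srsf10 in 2 saline libraries. In the 6 SR-related and RBM genes, retained introns numbered 15, 17 and 22 in saline and 25, 23 and 26 in morphine, alternative exon ends 16, 14 and 15 against 17, 19 and 19, and all events 65, 64 and 70 against 76, 76 and 81. Of these, Srrm2 held 0, 0 and 0 retained introns in saline and 2, 1 and 8 in morphine. It held 4, 0 and 4 alternative exon ends against 4, 2 and 6, and 10, 5 and 9 events against 11, 10 and 22. Without Srrm2, the counts of each of these classes overlap between groups, and the same holds without Rbm39 instead. Rbm39 held 9, 2 and 6 retained introns in saline and 9, 9 and 3 in morphine. Without Son, retained introns and alternative exon ends overlap as well. The separation is thus not particular to Srrm2. Each of the 5 comparisons without overlap had an exact permutation p of 0.1, the smallest possible, and a Benjamini-Hochberg value of 0.8 over the 40 tests. After scaling to the length of the list, retained introns and alternative exon ends of the SR-related and RBM genes overlapped, and the other 3 did not.

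For single genes, event counts that did not overlap between groups were found for 3 of the 51 (5.88%), and for 2.73% of the 16154 listed genes. Scaled to the length of the list, they were 6 of the 51 (11.8%), and 5.96% of all genes. Higher in morphine was 1 gene (1.96%, against 1.78% of all genes), and lower were 2 (3.92%, against 0.947%). Hnrnpl, a binder of CA repeats, had 7, 7 and 7 events in saline and 8, 9 and 8 in morphine. Its 7 constant events were the same in all libraries, and each morphine library added events of its own, a retained intron in library 1, a skipped exon and a start in library 2, and a start in library 3. Hnrnpk had 8, 8 and 8 in saline and 6, 6 and 6 in morphine. Mbnl1 had 13, 15 and 13 in saline and 9, 12 and 11 in morphine. Its lowest count was in the library that did not list single skipping of its 36-nt and 95-nt exons. With so few genes, these shares rest on single events.

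Events that every library of one condition listed and no library of the other did numbered 5 of 701 (0.713%), against 0.671% of all 125409 events. With all coordinates as identity, they were 8 of 897 (0.892%), against 0.478%. Only in morphine libraries were 2 (0.285%, against 0.39%), and only in saline libraries 3 (0.428%, against 0.281%). In Hnrnpk, both entries of an acceptor choice in the coding part were listed in the 3 saline libraries, with exons chr13:58393196-58393365 and chr13:58393196-58393241, 124 nt apart. This is a single choice counted by its 2 forms, and it makes up the whole difference in the event count of Hnrnpk. In Hnrnpdl, a relative of AUF1 whose 3′ UTR exons are known to be spliced, a 105-nt exon (chr5:100035635-100035739, minus strand) was listed as skipped in all 3 morphine libraries. The same acceptor, at 100035739, was listed as the start of a last exon in all 3 saline libraries. That acceptor was thus listed in both groups in different events, and the lists do not show whether an inner form was also assembled in saline. An inner exon with the same donor and an acceptor further upstream (chr5:100035635-100036195) was listed in saline library 2. In Elavl2, a start whose first exon, in the 5′ UTR, ends at chr4:91371530 was listed in all 3 morphine libraries, beside 3 starts found in all 6.

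The events of the splicing factors were found in all libraries more often than those of all listed genes, which is a description without a test. In all, 192 of 701 (27.4%) were found in all 6 libraries, against 21.7% over all genes. The share was higher in each class, at 33.75% against 23.1% for single skipped exons, 30% against 12.8% for multiple skipped exons, 21.9% against 9.77% for alternative exon ends, 36.0% against 29.0% for starts and 47.2% against 30.9% for ends. Expression was not among the measures used here, and the part that the level of a gene has in this recurrence was not tested.

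**Figure D5:**
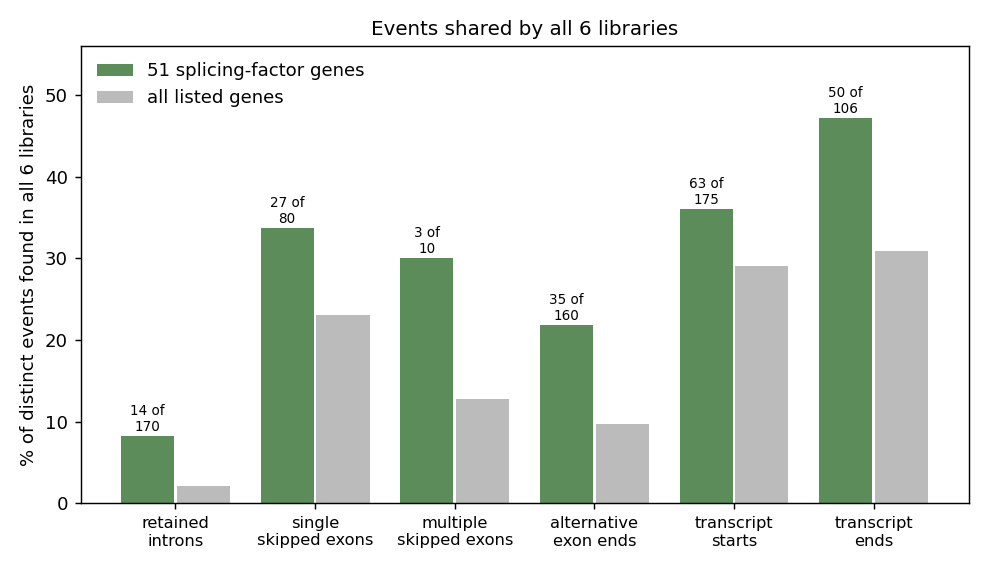
Percentage of distinct events found in all 6 libraries for 6 event classes, for the 51 splicing-factor genes (green, with counts above the bars) and all listed genes (gray). The green bar is the taller in each class, from 8.24% against 2.16% for retained introns to 47.2% against 30.9% for transcript ends.

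Other genes of the pathway were described by the same counts. Of 69 further spliceosome genes 68 were listed. Event counts did not overlap in 1 of them, Dhx16, a helicase of the activated spliceosome, which was higher in morphine (1 of 68, against 1.78% of all genes), and in none in the other direction. Of the 595 events of these genes, 2 were found in every morphine library and no saline library, against 0.39% of all events. None was found in every saline library and no morphine library, against 0.281% of all events. In none of the 15 exon junction and decay factors and none of the 6 SR kinases did the counts separate. Retained introns of the SR kinases, which phosphorylate SR proteins, numbered 14, 20 and 21 in saline and 13, 11 and 14 in morphine, so the highest morphine library equalled the lowest saline library.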

How the data were processed

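Per the study's methods, strand-specific libraries of NAc total RNA were mapped with HISAT2 and assembled with StringTie by the authors. The program behind the event lists, the genome build and the annotation were not given in the sources used here. The positions matched GENCODE M21 exons on GRCm38, where 99.3% of the gene identifiers were found. The event lists, as deposited by the authors, carry a score under the name FPKM, with values from 0 down to -25 in whole steps, and how the score was made is not stated. It was not used, because its sums over the starts and ends of a gene agreed in only 64.4% to 68.7% of genes, so the planned number of transcripts behind an event was left out. The read counts and the FPKM values in the deposited table of 31 lncRNA transcripts served only for relative depth, from 91 values with at least 10 counts. The authors' log2 fold changes and p-values (false discovery rates) in that table were not used. The number of per-sample columns left unused was 0.

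Events were told apart by gene, class, strand and the borders of the exon or intron, and transcript starts and ends by their splice site. Libraries were compared by exact permutation tests (two-sided) with Benjamini-Hochberg adjustment. Named genes were those with a poison exon, a retained intron in all 6 libraries, a group-specific event or non-overlapping counts, and the 5 with most retained introns, skipped exons, starts and ends. Srsf2, Hnrnpa1, Hnrnpab, Hnrnpc, Hnrnpd, Mbnl2, U2af2, Dhx16 and a few others were named after their values were seen, and the poison exons inside other events, the families by p and retained introns per gene were examined at that stage too. The 51 genes and all lists were chosen with earlier results of these data known. The alternatives were identity by all coordinates, own strand only, scaling per 10000 events, exact event types, other stop definitions and each library left out. Reading-frame calls were tested on made-up genes. The work used scipy 1.17.1, numpy 2.4.6, pandas 2.3.3, matplotlib 3.10.9 and Python 3.11.15.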

Additional observations from a re-analysis of the deposited data

How the results depend on the processing

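No paired analysis was made, because the groups were different mice and no pairs between them are described. The labels carry no replicate numbers, and those used here follow accession order. The 9 exact permutation tests by class could not pass 0.05 with 3 libraries or fewer a group. The smallest possible p of 0.1 was reached, against 0.2 or more as reported, by poison exons when scaled (-19.95%) and with all coordinates as identity (-16.7%), by single skipped exons when scaled (-11.1%) and by alternative exon ends of exact types (5.98%). Without a library, the difference of morphine from saline ranged from 3.02% to 26.1% for retained introns, -8.97% to -1.72% for single skipped exons, -29.4% to -11.8% for multiple skipped exons, 0.224% to 5.91% for alternative exon ends, -0.476% to 2.91% for starts, -2.19% to 2.53% for ends, -1.05% to 4.004% for all events, -20.3% to -10.9% for poison exons and 0 to 25.0% for exons whose skipping gives a stop. Scaled to the length of the list, the sign turned for alternative exon ends (-2.46%), starts (-4.10%), ends (-4.54%) and all events (-3.09%). On the own strand it turned for starts (-0.319%) and ends (-0.452%), which rest on events of 1 library. Without morphine replicate 1 it turned for starts (-0.476%), ends (-1.35%) and all events (-1.05%), and without saline replicate 3 for ends (-2.19%). With the stop taken from the annotation, poison exons were 11.8% higher in morphine, and with exact event types only their difference was -4.17%. The number of genes with counts that did not overlap was 6 after scaling (11.8%, against 5.96% of all genes) and 4 to 8 without a library (7.84% to 15.7%, against 5.78% to 6.67%), with the highest number, 8, without saline replicate 3 or morphine replicate 2. Group-specific events numbered 8 of 897 with all coordinates as identity (0.892%, against 0.478% of all events) and 12 to 15 without a library (1.71% to 2.14%, against 1.70% to 2.05%), since fewer libraries make the condition easier to meet. Of member events, 18.5% were found in all 6 libraries with all coordinates as identity. The share over all genes was not computed at this setting, so the contrast with all genes was not examined there. Depth limits what absence from a list can show, and the cause of the differences between settings was not tested.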
